A study of Mus musculus with 16 samples.

Results

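The insulin-like growth factor (IGF) axis was followed here through 9 of its genes, among 24982 genes in the count table. They were listed by name: the ligands Igf1 and Igf2, the receptors Igf1r and Igf2r, and the binding proteins Igfbp2, Igfbp3, Igfbp4, Igfbp5 and Igfbp7. The list holds names and no threshold on expression. All 9 genes had counts in every tumor, and all 9 were tested.

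The study profiled 16 rhabdoid tumors by RNA-seq, each from a different mouse of the genotype Smarcb1flox/flox;R26-CreERT2. In this model a Cre recombinase expressed from the ubiquitous Rosa26 locus is switched on by tamoxifen in the embryo, so that Smarcb1 can be lost in any cell type. The 5 Shh tumors lay within the brain parenchyma (intra-CNS), followed tamoxifen at embryonic day 6 (E6) and came from mice 30 to 180 days old. The 6 intracranial Myc tumors lay inside the skull but outside the parenchyma (extra-CNS), followed tamoxifen at E6 (1 tumor), E7 (1 tumor) or E8 (4 tumors), and came from mice 52 to 170 days old. The 5 extracranial Myc tumors grew in the back, jaw, nose or mouth, followed tamoxifen at E6 (1 tumor) or E8 (4 tumors), and came from mice 80 to 210 days old. Sites and days are those of the sample labels, and the subgroup names Shh and Myc are those of the study's list of mice. For mouse 43990A the labels give an extracranial tumor of the nose and that list an intracranial one, and the labels were followed. Every group carried the same floxed allele and Cre, mice were of mixed background, and no normal tissue was analysed here. Because every Shh tumor was intra-CNS and every Myc tumor extra-CNS, subgroup and site cannot be told apart. Day of tamoxifen also went largely with subgroup, at E6 for all 5 Shh tumors and for 2 of the 11 Myc tumors.

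Igf1 and Igf2 are secreted growth factors that signal through Igf1r, a receptor tyrosine kinase feeding the PI3K, AKT and MTOR cascade. Igf2r, also the receptor for mannose 6-phosphate, has no kinase activity and carries Igf2 to the lysosome, while the binding proteins hold the ligands in the extracellular space and are released by proteases. Igf2 is an imprinted gene of fetal growth that, in the adult brain, is known from the choroid plexus and the meninges, and Igf1 is known from macrophages and microglia among other cells.

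Total counts lay between 17889968 and 110177889 per tumor, and the lowest count of any member in any tumor was 7, for Igfbp2 in 43825B. A pair of libraries stood apart by markers of normal tissue. In R26P115, an intracranial Myc tumor, the 6 choroid plexus markers summed to 203244 TPM (transcripts scaled by gene length to a fixed total), or 20.3% of the library, against 3.56 to 133 TPM in the other Myc tumors. Its Myc level was 8.73 TPM, against 87.0 to 225 TPM in the other Myc tumors and 9.31 to 28.8 TPM in Shh tumors, which goes against the name of its subgroup. In 29048, a Shh tumor, oligodendrocyte markers summed to 6772 TPM, neuron markers to 3843 TPM and choroid plexus markers to 4638 TPM. Smarcb1, the deleted gene, was counted at 3.99 to 58.1 TPM in Shh tumors and at 6.48 to 43.7 TPM in Myc tumors, highest in 29048 and R26P115. Reads outside the floxed part are counted as well, so that this level is no full check of the deletion. Markers of the pituitary reached 424 TPM in 43989C and 332 TPM in R26P170, both intracranial Myc tumors, and at most 16.6 TPM elsewhere. Values without R26P115, or without both R26P115 and 29048, are given below where they changed a call of a member, and for some other results.

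**Figure D1:**
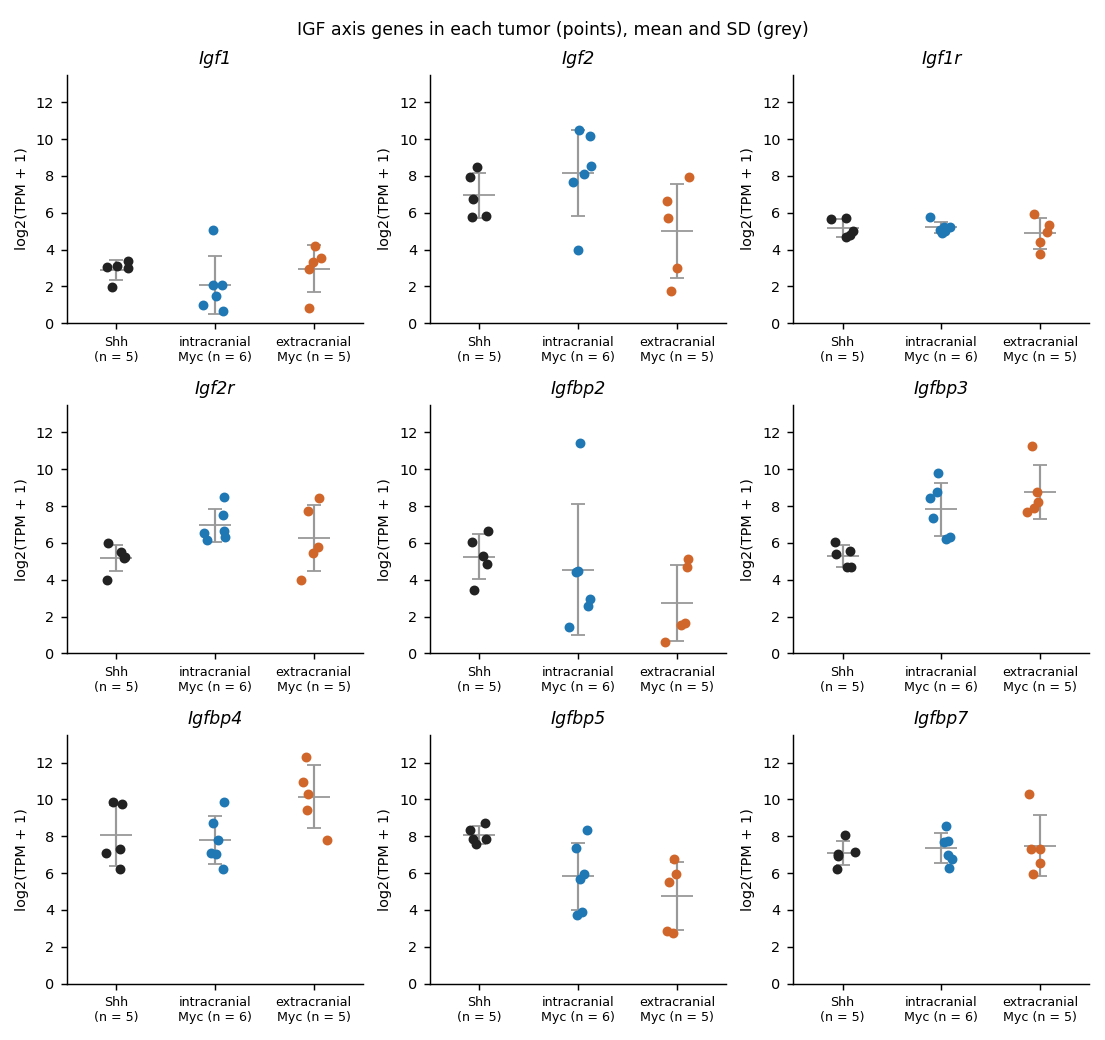
Level of each of the 9 genes in each tumor (points, log2(TPM + 1)), with the mean and SD of the group in grey, for 5 Shh, 6 intracranial Myc and 5 extracranial Myc tumors. Igfbp3 was lower in every Shh tumor than in any Myc tumor, and 1 intracranial Myc tumor (R26P115) lay far above the rest for Igfbp2.

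Which genes of the axis differed between the subgroups was asked first. In Shh tumors Igf2r and Igfbp3 were lower than in Myc tumors, and the other 7 genes did not pass the test, which was edgeR's quasi-likelihood test with an adjusted p under 0.05 over all genes and an absolute log2 fold change above 1. Of all 21854 genes tested, 26% were called in this comparison (29.1% by DESeq2), 12.9% as higher and 13.1% as lower in Shh tumors, so that 2 of 9 members is a share near the background. The median log2 fold change of the 9 members was -1.68, with 1 of 9 above 0, and that of all genes was -0.15. In limma on log2(TPM + 1) the median of the members turned to 0.11, with 5 of 9 above 0, where that of all genes was 0.20, so that no common direction of the 9 genes is shown. Of the macrophage markers, 10 of 10 were called lower in Shh tumors. Their summed level was 700 to 1126 TPM in Shh and 756 to 8747 TPM in Myc tumors. Fibroblast markers (6 of 8 called lower, 1 higher) summed to 280 to 673 TPM in Shh and 587 to 7806 TPM in Myc tumors, and no defining marker of either cell type was at 0 throughout a group. Other marker lists differed as well, with T cell (3 of 5) and skeletal muscle markers (3 of 5) called lower and oligodendrocyte (6 of 7) and neuron markers (3 of 6) called higher in Shh tumors. Without 29048, none of the 7 oligodendrocyte markers, 2 of the 6 neuron and 1 of the 5 T cell markers were called, and the oligodendrocyte sum was 53.9 to 166 TPM in the other 4 Shh tumors against 42.6 to 137 TPM in Myc tumors. In the fit without 29048 the macrophage count stayed at 10 of 10 and that of skeletal muscle at 3 of 5. Fibroblast markers called lower went from 6 to 5 of 8 there. The part of these cells in the results on the members was not tested. In bulk tumors, fewer cells of a type and less RNA per cell cannot be told apart.

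**Figure D2:**
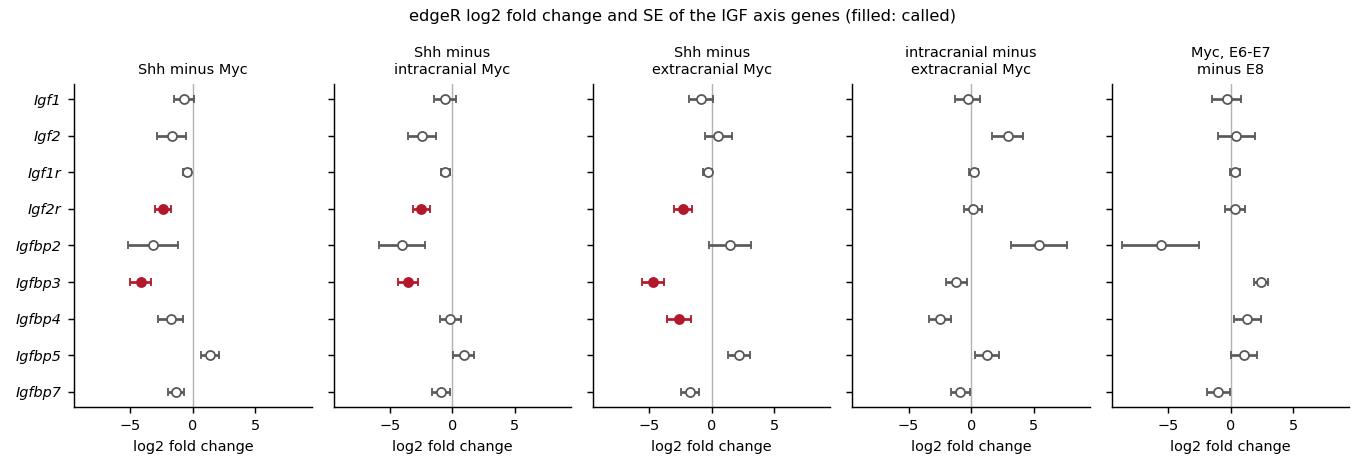
The edgeR log2 fold change (x axis) of each gene with its standard error in 5 comparisons, with filled points for genes past the thresholds. Igf2r and Igfbp3 were called in each comparison that involves Shh tumors, Igfbp4 against extracranial Myc tumors, and no gene among Myc tumors.

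Igf2 was the more abundant ligand by TPM, a unit set per length, in 15 of 16 tumors. In Shh tumors Igf2 was 52.6 TPM in 29050A, 56.4 in R26P87, 108 in R26P98, 243 in 29048 and 351 in 38594A. Intracranial Myc tumors ran from 14.5 TPM in 43992A through a median of 327 to 1426 TPM in R26P115, with 1158 TPM in 29225D. Extracranial Myc tumors had 2.34 TPM in 43825B, 7.09 in 43998A, 52.0 in 43987A, 98.3 in R26P123 and 246 in 43990A. The 3 groups overlapped, and the highest levels belonged to 2 intracranial Myc tumors. Between subgroups the log2 fold change of Igf2 was -1.68 ± 1.17 (SE; edgeR, adjusted p = 0.273), and -1.05 without R26P115 (adjusted p = 0.444), while the mean levels in log2(TPM + 1) were 6.95 ± 1.22 (SD, n = 5) in Shh and 6.73 ± 2.85 (SD, n = 11) in Myc tumors. The sign therefore turned with the scale, and was 0.22 in limma on log2(TPM + 1). With the 7 tumors of tamoxifen at E6 alone (5 Shh and 2 Myc) it was -0.36 (edgeR, adjusted p = 0.861). Against intracranial Myc tumors alone Igf2 stood at -2.41 ± 1.11 (SE; edgeR, adjusted p = 0.116), which DESeq2 called (-2.38, adjusted p = 0.0393). Without R26P115 it was -1.78 (edgeR, adjusted p = 0.213). Against extracranial Myc tumors the sign was the opposite, at 0.53 ± 1.08 (SE; edgeR, adjusted p = 0.746). The levels of Igf2 within a scheme of mouse names also went opposite ways, with Shh minus Myc at 1.28 log2 units in numbered mice and at -2.11 in R26P mice, or -1.07 without R26P115 (2 against 2).

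Igf2 lay higher in intracranial than in extracranial Myc tumors by a log2 fold change of 2.93 ± 1.23 (SE), which did not pass the threshold over all genes (edgeR, adjusted p = 0.381, 0.473 without R26P115). Of 21261 genes tested among Myc tumors, 0.0047% were called between the sites, which is 1 gene, while 2606 had an unadjusted p under 0.05 and DESeq2 called 490 genes, or 2.3%. None of the 9 members was called by edgeR or DESeq2. Within the schemes of mouse names the Igf2 difference was 2.99 log2 units in numbered mice (4 against 4) and 2.67 in R26P mice (2 against 1), or 1.49 without R26P115 (1 against 1). The level in R26P115 stood beside its 203244 TPM of choroid plexus markers and 2665 TPM of meninges markers, and the part of these tissues was not tested. Reads of Igf2os, an antisense gene that overlaps Igf2, cannot be told from those of Igf2 unless strand was used in counting, which is not stated.

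Igf2 sits at chr7:142650766-142666816 (GRCm38, minus strand), next to H19, a non-coding RNA expressed from the other parental allele and sharing enhancers with Igf2. H19 is given here as a companion of Igf2. Its log2 fold change between Shh and Myc tumors was -2.75 ± 1.05 (SE; edgeR, adjusted p = 0.0545), which missed the threshold. The ratio of Igf2 to H19 TPM was 1.44 to 5.21 in Shh tumors, 0.234 to 94.1 in intracranial Myc tumors and 0.0553 to 0.413 in extracranial Myc tumors. Thus Igf2 exceeded H19 in 5 of 5 Shh tumors, 3 of 6 intracranial and 0 of 5 extracranial Myc tumors. This ratio was singled out after its values were seen and was not tested. R26P115, at 1426 TPM of Igf2 and 15.2 TPM of H19, gave the 94.1, and the next highest ratio in a Myc tumor was 3.35, in 29225D.

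**Figure D3:**
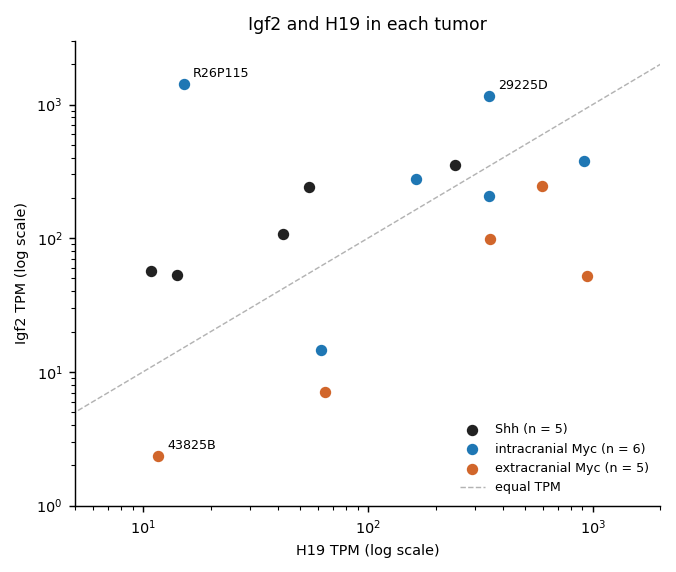
Igf2 against H19 in each of the 16 tumors (TPM, both axes logarithmic), with a dashed line at equal TPM. The 5 Shh tumors lie above the line and the 5 extracranial Myc tumors below it, while R26P115 lies far above it.

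Igf1, made by many tissues and by macrophages, was a low transcript. In Shh tumors it was 2.99 TPM in R26P87, 6.92 in 38594A, 7.24 in 29050A, 7.47 in 29048 and 9.36 in R26P98. Intracranial Myc tumors ran from 0.617 TPM in 43992A through a median of 2.498 to 32.4 TPM in 43989C. At extracranial sites Igf1 was 0.744 TPM in 43998A, 6.60 in 43987A, 9.08 in R26P123, 10.7 in 43990A and 17.0 in 43825B. All groups overlapped, and Igf1 was not called (Shh against Myc, -0.73 ± 0.80 SE; edgeR, adjusted p = 0.493), with -0.24 when 43989C was left out (adjusted p = 0.812). Across the 11 Myc tumors its level was compared with the summed macrophage markers (Pearson's r = 0.606, permutation p = 0.0426, 0.128 after Benjamini-Hochberg adjustment over 3 marker correlations). Spearman's rho was 0.709 (permutation p = 0.0175, 0.0524 after adjustment). Without the 2 tumors farthest from the median of the markers, 43825B and R26P115, r was 0.828 (n = 9, exact permutation p = 0.0061). In the 8 numbered mice alone r was 0.816 (exact permutation p = 0.0134). Without single tumors r lay between 0.512 (without 43825B) and 0.816 (without R26P115), and the permutation p over the 10 tumors left was above 0.05 in 8 of 11 such fits, up to 0.130. With a pseudocount of 0.1, r was 0.558 (permutation p = 0.0697). The other correlations were weaker. For Igf2 with fibroblast markers r was -0.379 (permutation p = 0.252, rho -0.20 with p = 0.557). It was -0.118 without R26P115 and 0.03 without the 2 outermost tumors. For Igfbp7 with endothelial markers r was 0.390 (permutation p = 0.241, rho 0.455 with p = 0.164). It was 0.170 without the 2 tumors outermost for those markers. Without 43992A it was 0.679 (permutation p = 0.0160), the only 1 of 11 fits without single tumors with p under 0.05.

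The log2 ratio of Igf1 to Igf2 (each TPM + 1) averaged -4.05 ± 1.11 (SD, n = 5) in Shh and -4.26 ± 3.25 (SD, n = 11) in Myc tumors, a difference well within the spread (two-sided exact permutation test, p = 0.894). Among Myc tumors it was lower at intracranial sites, at -6.10 ± 2.58 (SD, n = 6) against -2.06 ± 2.64 (SD, n = 5), with an exact permutation p of 0.0346. That p was 0.104 after adjustment over the 6 tests of this kind. The unadjusted p passed 0.05 upward in 6 of 11 fits without 1 tumor (29941C, 29225D, R26P170, R26P115, 43825B or 43998A), at 0.0571 to 0.0905, and was 0.0801 for medians and 0.171 in numbered mice. In 43825B, the tumor of the back, Igf2 was only 0.137 times as high as Igf1, which was the single tumor with more Igf1 than Igf2.

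Igf1r, the signaling receptor, was the steadiest of the 9 genes. It was 24.4 TPM in 29048, 26.7 in 38594A, 31.8 in R26P98, 48.7 in R26P87 and 50.6 in 29050A. Intracranial Myc tumors lay between 28.5 and 54.1 TPM with a median of 34.3. Outside the skull Igf1r was 12.7 TPM in 43990A, 20.5 in 43998A, 29.7 in R26P123, 38.9 in 43987A and 58.95 in 43825B. Its highest level over all tumors was 4.64 times its lowest, against 5329 times for Igfbp2, 610 times for Igf2 and 24.8 times for Igf2r. The log2 fold change between subgroups was -0.46 ± 0.30 (SE; edgeR, adjusted p = 0.254), and 0.11 in limma on log2(TPM + 1).

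Igf2r, the clearance receptor, was 15.1 TPM in 29048, 35.6 in R26P98, 36.1 in 38594A, 44.7 in 29050A and 62.1 in R26P87. In intracranial Myc tumors it was 69.7 TPM in 43992A at the lowest, 97.2 at the median and 365 in R26P170 at the highest. In extracranial Myc tumors it was 14.7 TPM in 43990A, 42.7 in 43825B, 54.7 in 43998A, 212 in 43987A and 346 in R26P123. By TPM every intracranial Myc tumor thus lay above every Shh tumor. On that scale 3 of the 5 extracranial tumors lay within the Shh range or, for 43990A, just below it. In normalised counts (TMM CPM), nearer to what edgeR tests, Shh tumors ran from 42.7 in 29048 to 175 in R26P87. There 43990A, at 57.2, was the only Myc tumor inside that range. On the same scale 43825B, at 177, lay just above the Shh range and 43998A was at 234. Igf2r fell by 2.39 ± 0.65 (SE) on the log2 scale in Shh against all Myc tumors (edgeR, adjusted p = 0.0106). The call held in 16 of 16 fits that left out 1 tumor, and without R26P115 and 29048 (-2.23, adjusted p = 0.0268). It was lost in limma on log2(TPM + 1), at -1.46 with an adjusted p of 0.0788. Within the schemes of mouse names the mean difference in log2(TPM + 1) was -1.32 in numbered and -2.17 in R26P mice.

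Against intracranial Myc tumors alone, where 23% of all genes were called (10.8% as higher and 12.2% as lower in Shh, 26.3% in all by DESeq2), Igf2r was lower in Shh tumors by 2.47 ± 0.71 (log2 fold change -2.47, SE; edgeR, adjusted p = 0.0179). In limma on log2(TPM + 1) Igf2r missed the threshold there (-1.77, adjusted p = 0.0667). Groups were as separate in normalised counts for 21.3% of genes there, among those averaging 50 counts or more. Against extracranial Myc tumors, where 25% were called (12.1% as higher and 12.9% as lower in Shh, 27.4% in all by DESeq2), the log2 fold change was -2.28 ± 0.72 (SE; edgeR, adjusted p = 0.0271). This call was lost when any of 29048, 38594A, R26P98, 43987A or R26P123 was left out, with adjusted p-values up to 0.0953. It was also lost without R26P115 and 29048 together (-2.08, adjusted p = 0.0586) and in limma on log2(TPM + 1) (-1.10, adjusted p = 0.290). Airn, a non-coding RNA antisense to Igf2r that overlaps it, was listed at 0.874 to 17.7 TPM, and its reads cannot be told from those of Igf2r without strand. The 3 comparisons share the Shh tumors and are not independent of each other.

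The log2 ratio of Igf1r to Igf2r (each TPM + 1) averaged -0.02 ± 0.44 (SD, n = 5) in Shh and -1.59 ± 1.25 (SD, n = 11) in Myc tumors. The difference of 1.58 had an exact permutation p of 0.0174 (two-sided), or 0.104 after adjustment over the 6 tests. The unadjusted exact permutation p stayed under 0.05 in 16 of 16 fits without 1 tumor, at up to 0.0440. In the numbered mice alone the difference was 1.35, with an exact permutation p of 0.0667, and by medians it was 1.22 (exact permutation p = 0.138). Igf2r exceeded Igf1r in 3 of 5 Shh, 6 of 6 intracranial and 4 of 5 extracranial Myc tumors. Between the sites of Myc tumors the ratio differed by -0.35 (intracranial minus extracranial), which was not distinguishable from 0 (exact permutation p = 0.667).

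The stretches before the starts of Igf2r and Igfbp3 are shown because both members were lower in Shh tumors. They are the 250 bases before the RefSeq start (GRCm38.p6, minus strand), at chr17:12769707-12769956 for Igf2r and at chr11:7213924-7214173 for Igfbp3, 5′ to 3′, with matches to CACGTG (the E-box), GGGCGG (the GC box) and TATAAA (the TATA box) on either strand in capitals:

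Igf2r: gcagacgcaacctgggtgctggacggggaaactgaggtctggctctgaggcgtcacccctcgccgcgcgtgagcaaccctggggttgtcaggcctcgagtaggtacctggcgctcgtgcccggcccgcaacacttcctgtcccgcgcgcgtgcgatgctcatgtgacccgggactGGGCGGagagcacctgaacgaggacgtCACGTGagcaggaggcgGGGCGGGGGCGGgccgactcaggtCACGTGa

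Igfbp3: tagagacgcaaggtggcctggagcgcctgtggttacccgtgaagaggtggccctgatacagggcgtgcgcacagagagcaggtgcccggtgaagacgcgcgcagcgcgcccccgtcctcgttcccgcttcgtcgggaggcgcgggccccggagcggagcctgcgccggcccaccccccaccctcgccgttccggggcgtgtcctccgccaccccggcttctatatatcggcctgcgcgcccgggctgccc

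The Igf2r stretch held 2 E-boxes and 3 GC boxes, of which a pair adjoins, and no motif overlapped another. The Igfbp3 stretch held none of the 3 motifs in these letters. Among 32851 RefSeq starts, 6.02% had an E-box in the same 250 bases, 32.7% a GC box and 12.4% a TATA box. The Igf2r stretch held 27 CpG and the Igfbp3 stretch 32 CpG, against a median of 6 over all starts. A match is a run of letters and not a measured site.

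Igfbp3, a main carrier of IGFs in serum, differed most between the subgroups. It was 24.6 TPM in R26P87, 24.8 in 29048, 41.7 in 38594A, 45.9 in 29050A and 64.7 in R26P98. Intracranial Myc tumors had 72.4 TPM in R26P115 at the lowest, 257 at the median and 896 in 29225D at the highest. Extracranial Myc tumors had 201 TPM in 43990A, 238 in 43998A, 299 in R26P123, 426 in 43987A and 2448 in 43825B. All 5 Shh tumors lay below all 11 Myc tumors, as was the case, in either direction, for 15% of genes averaging 50 counts or more. Igfbp3 fell by 4.17 ± 0.85 (SE) on the log2 scale in Shh tumors (edgeR, adjusted p = 0.00149), or 17.9-fold. The log2 fold change was -3.45 without 43825B, and lay between -4.41 and -3.45 in the fits that left out 1 tumor. It was called in each of these 16 fits and in each of the 8 other alternatives. Their log2 fold changes ran from -5.74 at E6 alone to -2.97 in limma on log2(TPM + 1). The E6 set held only 2 Myc tumors, R26P170 at 429 TPM and 43825B at 2448 TPM.

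Igfbp3 was lower in Shh than in intracranial Myc tumors (log2 fold change -3.51 ± 0.81 SE; edgeR, adjusted p = 0.00501) and than in extracranial Myc tumors (-4.69 ± 0.87 SE; edgeR, adjusted p = 0.00118). The latter was -3.35 without 43825B (adjusted p = 0.00195). Within the schemes of mouse names the mean difference in log2(TPM + 1), Shh minus Myc, was -3.22 in numbered mice and -2.37 in R26P mice. Among Myc tumors the sites did not differ beyond the spread (-1.18 ± 0.81 SE; edgeR, adjusted p = 0.543), and the sign turned, to 0.17, when 43825B was left out. By day of tamoxifen, the 3 Myc tumors induced at E6 or E7 had 429, 896 and 2448 TPM and the 8 induced at E8 had at most 426 TPM. The log2 fold change of E6 or E7 against E8 was 2.45 ± 0.56 (SE, unadjusted p = 0.00105), far from the threshold over all genes (edgeR, adjusted p = 0.908). In that comparison 0% of genes were called by edgeR, with 747 at an unadjusted p under 0.05, and 39 genes by DESeq2, Igfbp3 among them (adjusted p = 0.0414). Groups did not overlap for 0.669% of genes there.

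Igfbp4, an inhibitory carrier cleaved by the protease Pappa, took the largest share of the summed Igfbp transcripts in 7 of 11 Myc tumors. In Shh tumors it was 74.5 TPM in R26P87, 133 in 29048, 159 in 38594A, 857 in R26P98 and 921 in 29050A. Intracranial Myc tumors lay between 74.5 and 940 TPM with a median of 179. Extracranial Myc tumors had 221 TPM in 43987A, 680 in 43990A, 1263 in 43998A, 1976 in R26P123 and 5108 in 43825B. The highest levels were extracranial, but the groups overlapped. Igfbp4 was lower in Shh than in extracranial Myc tumors at the edge of the threshold (log2 fold change -2.61 ± 0.95 SE; edgeR, adjusted p = 0.04999). The call was lost without 43825B (-1.75, adjusted p = 0.167), without any 1 of 29048, 38594A, R26P87, 29941C, 43989C, R26P170, 43998A and R26P123 (adjusted p up to 0.106), without R26P115 and 29048 together (adjusted p = 0.0958), with the name scheme as covariate (adjusted p = 0.0725) and in limma on log2(TPM + 1) (-2.11, adjusted p = 0.09998). Against intracranial Myc tumors the log2 fold change was -0.15 ± 0.86 (SE; edgeR, adjusted p = 0.933). Between the sites of Myc tumors it was -2.50 ± 0.84 (SE; edgeR, adjusted p = 0.348), and -1.61 without 43825B.

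Igfbp5, a carrier held in the extracellular matrix, leaned toward the Shh tumors. It was 189 TPM in R26P87, 227 in 38594A, 234 in 29048, 325 in R26P98 and 428 in 29050A. Intracranial Myc tumors had 12.3 TPM in 29941C at the lowest, 55.9 at the median and 322 in R26P170 at the highest. Extracranial Myc tumors had 5.73 TPM in 43825B, 6.23 in 43998A, 44.7 in R26P123, 60.01 in 43987A and 108 in 43990A. By TPM R26P170 was thus the only Myc tumor inside the Shh range. In normalised counts (TMM CPM) Shh tumors ran from 348 in R26P87 to 814 in 29050A. On that scale 43989C, at 443, lay inside the Shh range and R26P170, at 856, above it, with the other Myc tumors below. Igfbp5 was not called in edgeR (log2 fold change 1.35 ± 0.73 SE, adjusted p = 0.162), but was called when R26P170 was left out (1.90, adjusted p = 0.034) and in limma on log2(TPM + 1) (2.73, adjusted p = 0.0143). At E6 alone, with 5 Shh and 2 Myc tumors (43825B and R26P170), it was only 0.23 (edgeR, adjusted p = 0.891). Against intracranial Myc tumors it was 0.90 ± 0.82 (SE; edgeR, adjusted p = 0.419). Against extracranial Myc tumors, where the groups did not overlap, as for 29.4% of genes, the log2 fold change was 2.17 ± 0.89 (SE; edgeR, adjusted p = 0.0791). With 43990A counted as intracranial it was 2.77 (edgeR, adjusted p = 0.0376, or 0.0436 with that tumor left out), and DESeq2 called it with the labelled site (adjusted p = 0.0245).

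Igfbp2, a carrier common in fetal tissue and brain fluid, had its highest level in a single tumor. In Shh tumors it was 9.96 TPM in 38594A, 27.5 in R26P87, 38.4 in R26P98, 65.8 in 29050A and 99.3 in 29048. Intracranial Myc tumors ran from 1.70 TPM in 43992A through a median of 13.7 to 2764 TPM in R26P115. At extracranial sites Igfbp2 was 0.519 TPM in 43825B, 1.93 in 43987A, 2.14 in 43998A, 25.2 in R26P123 and 34.3 in 43990A. Apart from R26P115, no Myc tumor exceeded 34.3 TPM. The log2 fold change between subgroups was -3.16 ± 2.01 (SE; edgeR, adjusted p = 0.235) and turned to 1.54 (adjusted p = 0.131) without R26P115. Likewise the value of 5.44 between intracranial and extracranial Myc tumors (SE 2.25; edgeR, adjusted p = 0.377) became -0.14 without R26P115. In that library the choroid plexus markers were high as well, and their part in the Igfbp2 level was not tested.

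Igfbp7, a related secreted protein that binds IGFs weakly and is known from vessels, was 72.7 to 267 TPM in Shh tumors and 78.0 to 380 TPM in intracranial Myc tumors. In extracranial Myc tumors it was 61.2 TPM in 43998A, 93.9 in 43990A, 157 in R26P123, 160 in 43825B and 1257 in 43987A. The groups overlapped, and no edgeR comparison called it (Shh against Myc, -1.35 ± 0.67 SE, adjusted p = 0.129), though DESeq2 did against extracranial Myc tumors (-1.71, adjusted p = 0.0471). Without 43987A the edgeR log2 fold change of Igfbp7 was -0.66 for Shh against Myc (adjusted p = 0.241) and -0.18 against extracranial Myc tumors (adjusted p = 0.810), where it had been -1.74. In all tumors limma on log2(TPM + 1) gave -0.33 and -0.41. Without 43987A its sign between the sites of Myc tumors turned, from -0.86 to 0.72.

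**Figure D4:**
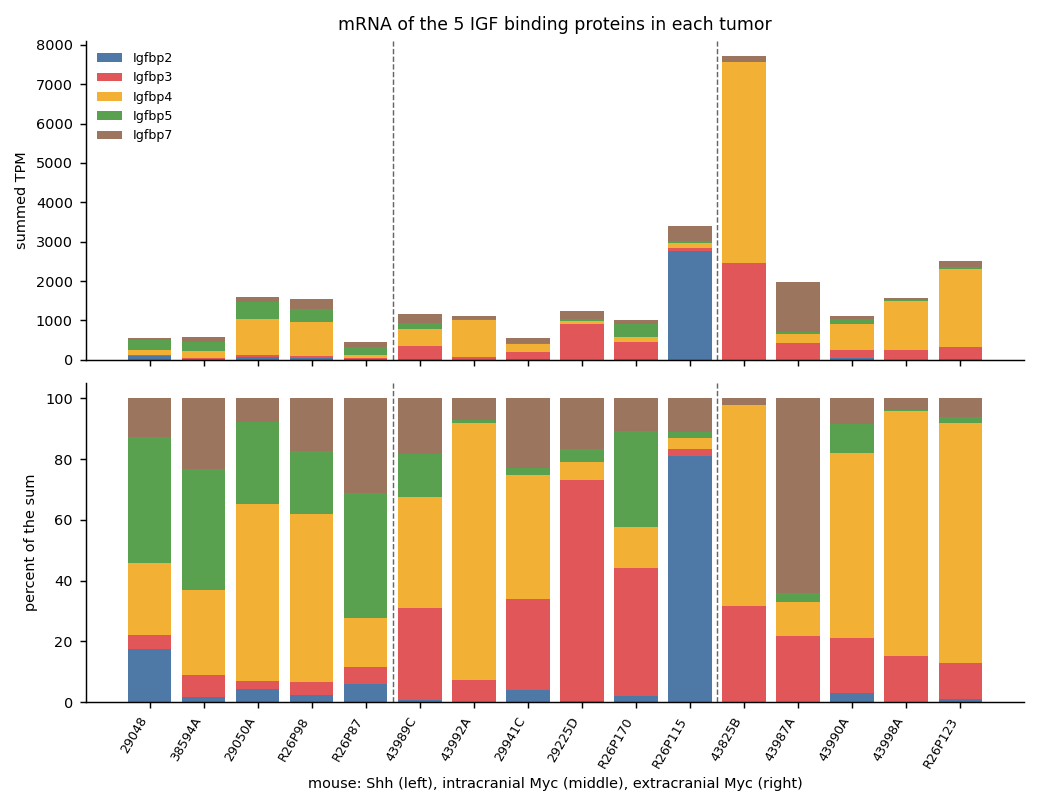
Summed TPM of the 5 binding proteins in each tumor (top) and the share of each in that sum (bottom), with dashed lines between Shh, intracranial Myc and extracranial Myc tumors. Igfbp3 made up at most 7.31% of the sum in Shh tumors, Igfbp2 81.1% in R26P115 and Igfbp7 63.9% in 43987A.

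The summed TPM of the 5 binding proteins was 458 to 1582 in Shh tumors (median 570), 543 to 3408 in intracranial Myc tumors (median 1131) and 1118 to 7722 in extracranial Myc tumors (median 1966). On the log2 scale Shh minus Myc was -0.99 and intracranial minus extracranial Myc was -0.95, and the groups overlapped in both. The difference between the sites was -1.25 without R26P115. The tumor at 7722 TPM was 43825B, in which Igfbp4 made up 66.1% and Igfbp3 31.7% of the sum. In Shh tumors Igfbp5 led in 3 and Igfbp4 in 2 of 5 tumors, with Igfbp5 at 21.0% to 41.5% of the sum. In Myc tumors the median share of Igfbp5 was 2.26% and that of Igfbp3 21.7%, against 4.399% for Igfbp3 in Shh tumors. The leading binding protein in Myc tumors was Igfbp4 in 7, Igfbp3 in 2 (29225D and R26P170), Igfbp7 in 1 and Igfbp2 in 1. These shares are a description and were not tested.

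By median TPM the order in Shh tumors was Igfbp5, Igfbp4, Igfbp7, Igf2, Igfbp3, Igfbp2, Igf2r, Igf1r and Igf1. Only the last step, from Igf1r at 31.8 TPM to Igf1 at 7.24 TPM, separated ranges that did not overlap. In intracranial Myc tumors Igf2 came first at 327 TPM and Igfbp3 next at 257 TPM, and in extracranial Myc tumors Igfbp4 came first at 1263 TPM and Igfbp3 next at 299 TPM. No neighbours in these latter orders had separate ranges.

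The other genes of the pathway were followed through 3 lists of 49 genes, all tested. In Shh against Myc tumors 7 were higher and 7 lower, or 14 of 49 beside 26% of all genes, with a median log2 fold change of -0.19 against -0.15 for all genes. Of 22 regulators and adaptors of the IGF pathway, 3 were higher in Shh tumors and 4 lower. Igfbpl1, an Igfbp-like protein of the nervous system, was higher by 4.41 ± 1.48 (log2, SE; edgeR, adjusted p = 0.0303), with 64.2 to 227 TPM in Shh and at most 33.7 TPM in Myc tumors. Irs1, a docking protein of the receptor, was higher by 2.08 ± 0.70 (edgeR, adjusted p = 0.0309). It was called against neither Myc site alone (edgeR, adjusted p = 0.116 for intracranial and 0.0575 for extracranial). Igfbp6, a carrier that prefers Igf2, was lower, at -7.54 ± 1.63 (edgeR, adjusted p = 0.00215), with at most 9.80 TPM in Shh tumors and a median of 411 TPM in Myc tumors. Htra1, a secreted protease of binding proteins, was lower, at -3.62 ± 1.21 (edgeR, adjusted p = 0.0295). Igfbpl1 and Htra1 missed the threshold against intracranial Myc tumors alone (edgeR, adjusted p = 0.0585 and 0.0655).

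Of 17 genes of PI3K, AKT and MTOR signaling, 2 were higher in Shh tumors and 2 lower. Eif4ebp1, a translation repressor that MTOR inactivates, was lower, at -4.62 ± 0.56 (edgeR, adjusted p = 2.98e-05), with 4.69 to 22.1 TPM in Shh and 23.9 to 302 TPM in Myc tumors. Gsk3b, a kinase that AKT inhibits, was higher in Shh than in intracranial Myc tumors by 1.30 ± 0.18 (edgeR, adjusted p = 0.000172), with 88.5 to 148 TPM in Shh and 27.5 to 45.8 TPM in intracranial Myc tumors. Foxo1, a transcription factor that AKT keeps out of the nucleus, was higher in the same comparison by 1.18 ± 0.31 (edgeR, adjusted p = 0.0109). The other 13 genes of this list, Mtor and Akt1 among them, did not pass both thresholds between subgroups (Akt1, -0.84, edgeR adjusted p = 0.00345). Of 10 imprinted growth genes, 2 were higher and 1 lower. Dlk1, a Delta-like surface protein, was lower, at -6.59 ± 1.29 (edgeR, adjusted p = 0.00102), with 1.33 to 29.7 TPM in Shh and 27.1 to 1427 TPM in Myc tumors. Peg3 was higher by 2.51 ± 0.86 (edgeR, adjusted p = 0.0332) and Ndn by 1.94 ± 0.59 (edgeR, adjusted p = 0.0182). Peg3 was not called against intracranial Myc tumors alone (edgeR, adjusted p = 0.127), nor Ndn against extracranial ones (edgeR, adjusted p = 0.0959).

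Against intracranial Myc tumors 4 of the 49 genes were higher and 6 lower, and against extracranial Myc tumors 8 were higher and 7 lower. These are 20.4% and 30.6% of the lists, near the 23% and 25% of all genes. Irs2, a second docking protein, was higher in Shh than in intracranial Myc tumors by 1.22 ± 0.41 (edgeR, adjusted p = 0.0385), and Shc1, an adaptor, was lower, at -2.95 ± 0.43 (edgeR, adjusted p = 0.000273). Against extracranial Myc tumors Grb14, an adaptor that dampens the receptor, was higher by 3.55 ± 1.14 and Igf2bp3, an RNA-binding protein, by 4.44 ± 1.52 (edgeR, adjusted p = 0.0291 and 0.0383). Between the sites of Myc tumors, and between days of tamoxifen, edgeR called none of the 49 genes, and DESeq2 called 2 between the sites, where it called 2.3% of all genes.

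**Figure D5:**
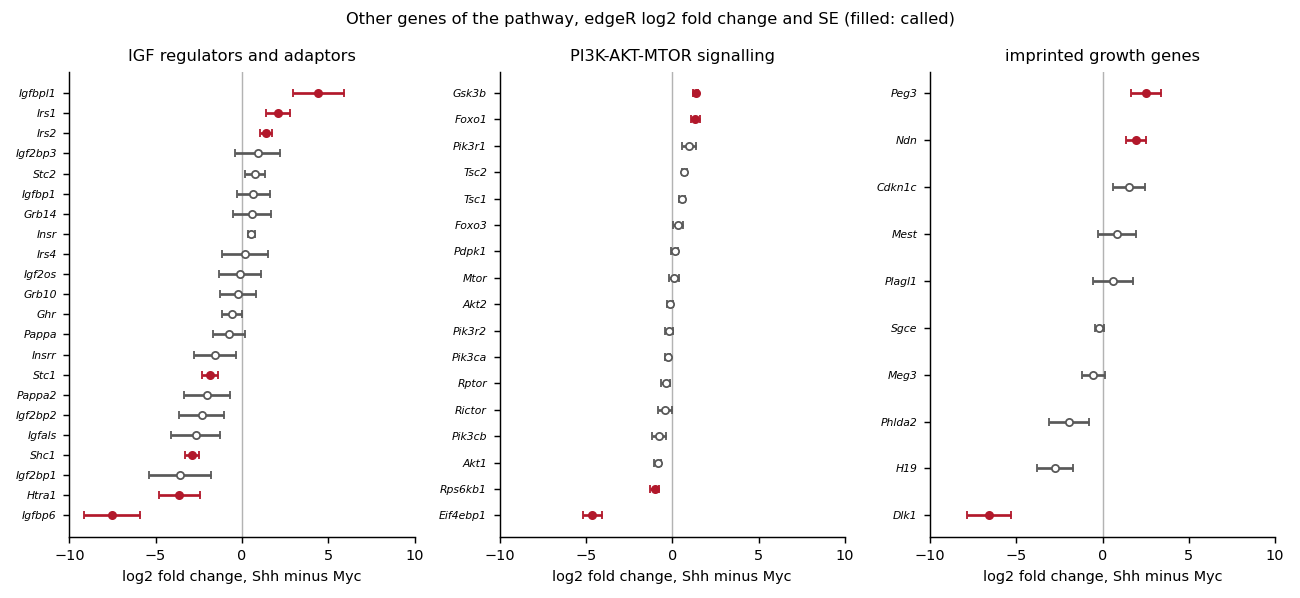
The edgeR log2 fold change of Shh minus Myc tumors (x axis) with its standard error for the 49 genes of 3 lists around the IGF axis, with filled points for genes past the thresholds. Of the 49 genes, 7 were higher and 7 lower in Shh tumors.

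The genes with the most similar pattern to each member over the 11 Myc tumors were sought among 14803 genes by Pearson's r of log2(TPM + 1), as a description. Igf1 was most like Slc9a9 (r = 0.907) and 5430427O19Rik (r = 0.902), and Igf2 most like Slc4a4 (r = 0.913) and Slc27a3 (r = 0.906). Igf1r was most like Itsn2 (r = 0.870) and Slc25a30 (r = 0.850), and Igf2r most like Ccno (r = 0.892) and Ltbp1 (r = 0.891). No member was among the genes most like another member. Igfbp2 was most like Klf15 (r = 0.967) and Sort1 (r = 0.964), whose highest levels were 20.1 and 60.8 TPM. Without R26P115 these r were 0.873 and 0.872, and the pair ranked 12 and 13 in likeness to Igfbp2. Igfbp3 was most like Crtac1 (r = 0.932) and Rpusd1 (r = 0.924), and Igfbp4 most like Casp1 (r = 0.924) and Fcna (r = 0.920). Igfbp5 was most like Eif4e3 (r = 0.892) and Abca8b (r = 0.886), and Igfbp7 most like Ldb2 (r = 0.906) and Lmbrd2 (r = 0.887). For the other 8 members r without R26P115 lay between 0.861 and 0.933, and of all the genes named here Casp1 alone stayed first for its member. These were the 2 highest of many correlations over the same 11 libraries, some of which also shared depth and marker content.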

How the data were processed

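Polyadenylated RNA of macrodissected frozen tumors was sequenced as stranded paired-end libraries. Per the submitters' processing notes and the methods, reads were trimmed (Trim Galore) and mapped to mm10 with STAR 2.5.3a. The authors deposited raw counts per gene (whole numbers, not normalized) and TPM values, scaled by gene length, that sum to 1000000 in each tumor. The gene annotation and the strand setting of counting are not given in the sources used here. Of the columns of tumors in both tables, 0 were left unused.

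The 9 members and all gene lists were chosen with earlier results of these data known. Counts were tested with edgeR 4.0.16 in R 4.3.3 (TMM, glmQLFit and glmQLFTest) on genes with a count in any tumor, with Benjamini-Hochberg adjustment over all genes and calls at an adjusted p under 0.05 where the log2 fold change also exceeded 1 in size. Standard errors are the absolute log2 fold change divided by the square root of F. Shh was compared with all Myc tumors, and with each Myc site in a fit of 3 groups, while sites and days of tamoxifen were compared in Myc tumors alone. Ratios were compared with exact permutation tests and correlations with 100000 permutations (exact with fewer than 10 tumors), in Python 3.11.15 with scipy 1.17.1. Levels are log2(TPM + 1). Counts of 3 correspond to 0.0272 to 0.168 CPM, and depth sets counting error only. Replicates are separate mice. No pair of libraries was identical. The code was tested on simulated counts.

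Pathway genes named were, in each comparison with calls, the 4 highest and the 4 lowest log2 fold changes called, with a mean count of at least 50. Some genes of the pathway are not reported here. For likeness, the 2 genes of highest r were named. Alternatives were DESeq2 1.42.0 (Wald test, and its size factors in edgeR), limma 3.58.1 on log2(TPM + 1), filterByExpr in edgeR, calls by adjusted p alone, name scheme (numbered or R26P mice) as covariate, omission of each tumor, tamoxifen at E6 alone, 43990A as intracranial and a pseudocount of 0.1. The omission of 29048 and R26P115 together and of R26P115 from the Igf2 values of R26P mice, marker counts without 29048, and likeness without R26P115, were added after the data were seen. Gene positions are from the GENCODE annotation of GRCm38, in which 24490 of 24982 symbols were found, and sequences from RefSeq (GRCm38.p6), in which all 9 members were found.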

Additional observations from a re-analysis of the deposited data

Results flagged for a closer look

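Single tumors that stood apart from the rest of their group by Dixon's test were looked for in the levels of the 9 genes and H19, the ratios of ligands and of receptors, the summed Igfbp TPM and the 12 summed marker lists, in each of the 3 groups. Of 75 sets of tumors tested, 8 had such a tumor, where chance gives about 1 in 20. Igf1 was low in R26P87 among Shh tumors (1.995 in log2(TPM + 1), next lowest 2.99) and high in 43989C among intracranial Myc tumors (5.06, next highest 2.08). Macrophage markers summed to 6088 TPM in 43989C, the highest of the intracranial Myc tumors, and pituitary markers to 424 TPM. Their part in the Igf1 level was not tested. Igfbp2 was high in R26P115 (11.4 in log2(TPM + 1), next highest 4.49), the tumor in which summed choroid plexus markers reached 17.6 in log2 TPM. Among Shh tumors, 29048 was high for choroid plexus markers (12.2 in log2 TPM) and for oligodendrocyte markers (12.7), R26P87 for pericyte markers (8.18) and 29050A for pituitary markers (4.13, or 16.6 TPM).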

How the results depend on the processing

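No paired analysis was possible because every tumor came from its own mouse. Tamoxifen at E6 alone was not run for the separate Myc sites, which had 1 such tumor each, fewer than the 2 set for it. Over the log2 fold changes of the 9 genes in 5 comparisons, 590 of 630 fits without 1 tumor and 318 of 351 fits under the other alternatives kept the direction and the side of the threshold. Igfbp3 stayed called in the 3 comparisons with Shh tumors under each alternative run. The cause of the changes below was not tested, beyond fewer tumors where some were left out.

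Members called against intracranial Myc tumors were 1 in limma (beside 23.6% of all genes), against extracranial Myc tumors 5 in DESeq2 (27.4%), 1 without 29048 and R26P115 (25.4%) and 1 to 4 without single tumors (20.7% to 27.7%, and 1 without 29048, 38594A or R26P123), and by day of tamoxifen 1 in DESeq2 (0.183%). DESeq2 called 2 pathway genes between the sites of Myc tumors (beside 2.3% of all genes). Pathway genes called between subgroups numbered 9 at E6 alone (beside 16.9%) and 9 to 18 without single tumors (beside 21.9% to 30.5%, 9 without 38594A, 18 without R26P115). Over all genes, calls between subgroups numbered 5689 and 3533 at E6 alone, between the sites 1, 490 in DESeq2, 0 without 29048 and R26P115 and 0 to 3 without single tumors, and by day of tamoxifen 0, 39 in DESeq2 and at most 1 without a tumor. Of the 5689 calls 2829 were higher in Shh tumors and 2860 lower, against 4075 and 1307 in limma on log2(TPM + 1), where the median of all genes moved from -0.15 to 0.20.

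Signs turned as follows. In limma, Shh minus Myc was 0.43 for Igf1, 0.22 for Igf2, 0.11 for Igf1r and 1.53 for Igfbp2, Shh minus intracranial Myc was 0.83 for Igf1, 0.71 for Igfbp2 and 0.25 for Igfbp4, Shh minus extracranial Myc was 0.29 for Igf1r, and E6 or E7 minus E8 was -0.0701 for Igf2 and -0.43 for Igfbp4. Igfbp2 in Shh minus Myc was 1.53 in DESeq2, 1.05 with the name scheme as covariate, 1.63 at E6 alone and 1.10 without 29048 and R26P115, which also gave 1.19 against intracranial Myc tumors and -0.14 between the sites. With 43990A as intracranial the sites differed by -0.16 for Igf1r and -0.32 for Igf2r. With the name scheme as covariate, E6 or E7 minus E8 was -0.14 for Igf2r.

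Without single tumors the log2 fold changes ranged as follows. Igfbp2 lay at -3.60 to 1.54 (Shh minus Myc), -4.44 to 1.63 (minus intracranial Myc) and -0.14 to 6.19 (between the sites), the turn in each case without R26P115. Against intracranial Myc, Igf1 lay at -0.83 to 1.18 and Igfbp4 at -0.64 to 0.61, and against extracranial Myc, Igf1r lay at -0.55 to 0.0140 (without 43825B). Between the sites the ranges were -2.10 to 0.14 for Igf1, -0.0342 to 0.57 for Igf1r, -0.32 to 0.85 for Igf2r, -1.71 to 0.17 for Igfbp3 and -1.25 to 0.72 for Igfbp7. By day of tamoxifen they were -2.64 to 0.48 for Igf1, -1.23 to 1.71 for Igf2, -0.94 to 0.80 for Igf2r, -2.83 to 1.87 for Igfbp4 and -1.19 to 1.64 for Igfbp5.

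For the log2 ratio of Igf1 to Igf2, Shh minus Myc was -0.55 by medians, -0.84 in numbered mice and -0.23 to 0.88 without single tumors. Between the sites it was -4.01 by medians, -3.52 in numbered mice and -4.74 to -2.92 without single tumors, past the threshold in 5 of 11 such fits and not by medians or in numbered mice. For Igf1r to Igf2r, Shh minus Myc was 1.22 by medians and 1.35 in numbered mice, neither past the threshold. Without single tumors it was 1.39 to 1.78, past the threshold in 16 of 16 such fits, and the sites differed by -0.87 to 0.12. The log2 summed Igfbp TPM differed by -1.23 to -0.76 between subgroups and by -1.25 to -0.52 between sites. The correlation of Igf1 with macrophage markers was 0.558 with a pseudocount of 0.1 and 0.512 to 0.816 without single tumors. That of Igf2 with fibroblast markers was 0.0304 without the 2 outermost tumors and 0.0132 in numbered mice. Without single tumors it ran from -0.623 (without 29225D) to -0.118 (without R26P115). That of Igfbp7 with endothelial markers ran from 0.263 (without 43998A) to 0.679 (without 43992A).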
